A study of Mus musculus with 4 samples.

Results

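Alveolar macrophages are the resident phagocytes of the airspace, and 10 genes that mark their identity or their lysosomal and lipid-handling work are described here in lungs that over-express IL-33. The 10 genes, Pparg, Marco, Ear1, Ear2, Krt79, Fabp1, Atp6v0d2, Ctsk, Cd68 and Lgals3, were taken by name from a table of 43346 genes, and each had 1 row. All 10 passed the filter on low counts that left 20872 genes for testing. The mice carried an IL-33 over-expression genotype (2 libraries, B and E) or were labelled control (2 libraries, D and F). The labels name neither strain, age nor the promoter of the transgene, and do not say how many mice lie behind a library. All p-values then measure only how these 4 libraries scatter, which may be technical. The polyadenylated RNA was labelled as coming from lung epithelial cells in every library, while the series title speaks of lung tissue.

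In the mouse lung, granulocyte-macrophage colony-stimulating factor from alveolar type 2 cells acts on fetal monocytes and induces the nuclear receptor PPARγ, which sets the alveolar macrophage programme and its capacity to clear surfactant lipid. Mature cells carry scavenger receptors that bind inhaled particles, and their lysosomes are acidified by a vacuolar proton pump and filled with proteases. Several of the 10 genes are also active elsewhere: Pparg and Lgals3 in epithelium, Ctsk in fibroblasts, Fabp1 in liver and gut, and Cd68 in most macrophages.

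Library totals ran from 76120696 to 87723745 gene counts. Il33, the over-expressed gene, checked the labels, with more RNA in the transgenic libraries (1723 and 874 CPM, the read count scaled to a TMM-adjusted library size) than in the controls (117 and 108 CPM). Ptprc, which encodes the pan-leukocyte antigen CD45, reached 20.6 and 30.03 CPM (B and E) against 8.21 and 16.5 (D and F). Pecam1, an endothelial gene, stood between 824 and 1326 CPM, so RNA of cells other than epithelium was present in all libraries. Summed Y-linked genes reached 47.5% of the level of library D in F, 9.11% in E and 0.551% in B. Xist stood at 698 and 811 CPM in B and E and 1.19 and 356 in D and F. Both transgenic libraries thus had more Xist and less Y-linked RNA than both controls, so sex-linked levels were confounded with genotype. Y-linked Ddx3y stood at 0.0662 and 9.78 CPM in B and E and 112 and 57.1 in D and F. Libraries E and F thus held both Xist and Y-linked RNA, and whether they pool mice of both sexes was not tested. Ratios of B over D compare a library almost without Y-linked RNA with one almost without Xist.

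All 10 genes had higher mean levels in transgenic than in control libraries. By mean CPM they stood between percentile 23.0 (Fabp1) and 69.0 (Lgals3) of the genes tested. Together they took 79.2 and 102 CPM (B and E) against 51.1 and 74.8 (D and F). Log2 fold changes ran from 0.09 for Ctsk to 1.23 for Ear2, with a median of 0.59 beside -0.00 over all genes tested, and 10 of 10 lay above 0 against a background of 49.6% of genes. In 3 genes, Pparg, Ear2 and Lgals3, both transgenic libraries lay above both controls, as they did for 11.9% of all genes. None of the 10 lay the opposite way, against 12.0% of all genes. In a bulk sample, more cells of a type and more RNA per cell cannot be told apart, so these levels do not say which of them differed.

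No gene of the group passed the test. At an adjusted p of 0.05, edgeR's quasi-likelihood fit called 0 of the 10, and its background of genes called higher was 0%. Il33 itself was not called, at a log2 fold change of 3.53 (SE 0.37; adjusted p = 0.999993 in edgeR). That fit thus missed a known difference, so a gene not called is not shown to be unchanged. DESeq2 called 0 of the 10 (background 0.00479%, which is 1 gene) and limma-voom 0 (background 0%). At an unadjusted p under 0.05 edgeR counted 2 of the 10, Pparg and Lgals3, where 0.896% of all genes were that low and higher. DESeq2 and limma-voom each counted 3 of the 10, those plus Ear2, against 0.810% and 0.929% of all genes.

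Libraries of the same genotype also differed from each other. Libraries E and F exceeded B and D in 9 of the 10 genes when libraries of the same genotype were compared (E over B and F over D), as in 34.2% of all genes tested, and Lgals3 was the exception. Library F exceeded D, the other control, by more than the fitted genotype fold in 8 of the 10 genes. The share of all genes for which this held was not computed. Read within B and D and within E and F, the transgenic library was above the control in 9 of the 10 genes, against 26.3% of all genes, Ctsk being lower in E than in F. That grouping of libraries is known from earlier results of these data, and no label gives it. With a term for it in the fit, 8 of the 10 had an unadjusted p under 0.05 (background 2.97%), the exceptions being Fabp1 and Ctsk, and 0 passed after adjustment (background 0%, smallest adjusted p 0.733 in edgeR).

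The values changed with the Y-linked covariate and with each library left out. With a covariate for Y-linked RNA, 2 of the 10 genes, Pparg and Lgals3, kept a log2 fold change above 0, and the median turned to -0.71. That covariate is hardly separable from genotype here. The values that turned had SEs from 0.52 (Ctsk) to 1.26 (Marco), so their signs are uncertain. Without transgenic library E, 5 of the 10 stayed above 0 and the median was 0.02. Without control library D, 8 of the 10 were above 0, Fabp1 and Ctsk having turned, and the median was 0.25. Without library B or F all 10 were above 0, with medians of 1.002 and 1.53.

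**Figure D1:**
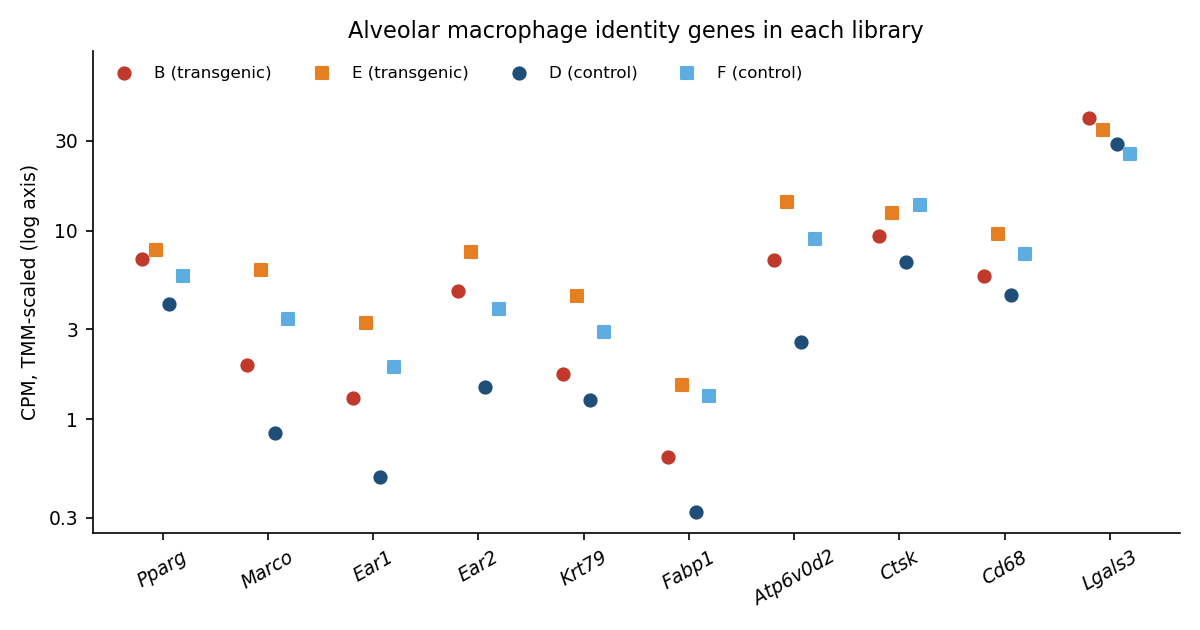
CPM (log axis, TMM-scaled) of the 10 genes in each library, with 1 point per library, transgenic in red and orange and control in blue. Library D is lowest for 9 genes and library E highest for 8, and the transgenic points clear both controls only for Pparg, Ear2 and Lgals3.

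Pparg encodes PPARγ, the nuclear receptor that specifies alveolar macrophages and that alveolar type 2 cells also express. Its level was 7.07 and 7.92 CPM (B and E) against 4.11 and 5.76 (D and F). Both transgenic libraries were above both controls, and the 2 transgenic libraries lay closer to each other than the 2 controls did. The means were 7.49 ± 0.603 CPM with the transgene and 4.93 ± 1.17 CPM without it (SD, n = 2 each), a log2 fold change of 0.60 (SE 0.22; adjusted p = 0.999993 in edgeR's quasi-likelihood test). With the Y-linked covariate the log2 fold change was 0.04 (SE 0.52). The gene spans chromosome 6, 115361221 to 115490401 (GRCm38).

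Marco encodes a class A scavenger receptor through which alveolar macrophages bind unopsonised bacteria and dust. Its counts were 147 and 548 (B and E) against 68 and 289 (D and F), or 1.95 and 6.18 CPM against 0.844 and 3.39 CPM. This was the widest span of the group, 7.33-fold between the highest and lowest library, and control F lay above transgenic B. The log2 fold change was 0.94 with an SE of 0.81, and it turned to -0.13 without library E and to -0.92 with the Y-linked covariate. Within the pairs of libraries, B exceeded D by 2.31-fold and E exceeded F by 1.82-fold.

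The promoter of Marco is shown because it holds the letters GAGGAAG, the core of sites bound by the macrophage factor PU.1, whose gene Spi1 is described below. The window runs from 250 bases before to 50 after the RefSeq start, at chr1:120504975-120505274 on the minus strand (GRCm38.p6, RefSeq), and the motif is in capitals.
Marco: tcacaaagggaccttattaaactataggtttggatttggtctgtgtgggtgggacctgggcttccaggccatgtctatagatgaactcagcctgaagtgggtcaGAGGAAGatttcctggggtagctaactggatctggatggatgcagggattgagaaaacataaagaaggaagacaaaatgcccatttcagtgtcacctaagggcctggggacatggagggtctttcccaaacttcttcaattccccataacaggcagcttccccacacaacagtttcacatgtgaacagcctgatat
Windows of this kind were held for 9 of the 10 genes, in 11 windows, and the entry for Atp6v0d2 is missing. GAGGAAG on either strand was in windows of 3 of the 9 genes, Marco, Fabp1 and Ctsk, and in 13.6% of the 32851 windows of all genes. The nuclear receptor half-site AGGTCA, the letters that PPARγ partners read in tandem, was in windows of 2 of the 9, Pparg and Fabp1, and in 16.3% of all windows. The E-box CACGTG was in windows of 0 of the 9 and in 7.15% of all windows. These are descriptions of letters in a window, not of binding.

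Ear1 and Ear2 encode eosinophil-associated ribonucleases of the RNase A superfamily, secreted enzymes that mouse alveolar macrophages express as well as eosinophils. Ear2 stood at 4.82 and 7.75 CPM (B and E) against 1.49 and 3.85 (D and F). Both transgenic libraries were above both controls, with means of 6.28 ± 2.07 and 2.67 ± 1.67 CPM (SD, n = 2 each). Its log2 fold change, 1.23 (SE 0.51; adjusted p = 0.999993 in edgeR), was the largest of the 10 over all 4 libraries, and it was -0.19 with the Y-linked covariate. It was 0.71 without library D and 2.08 without F, where Marco (2.27) and Ear1 (2.20) exceeded it, and without B it was 1.54 beside 1.55 for Marco. B exceeded D by 3.24-fold and E exceeded F by 2.01-fold.

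Ear1 was scarcer, at 1.30 and 3.26 CPM (B and E) against 0.496 and 1.89 (D and F). Control F lay above transgenic B, so the groups overlapped. The log2 fold change was 0.93 (SE 0.74), and -0.90 with the Y-linked covariate. Per kilobase, Ear2 averaged 5.11 and Ear1 1.96 in the RPKM values deposited by the authors.

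The assignment of reads between these paralogs is uncertain. Of all stretches of 50 bases in the longest GENCODE transcript, 57.4% for Ear1 and 41.5% for Ear2 occur letter for letter in a transcript of another gene, among them Ear10 and Ear6, while the share was 0% for the other 8 genes. The Ear1 and Ear2 transcripts were identical at 96.4% of 717 aligned bases. How the authors treated reads with several matches was not stated by the labels. The likeness extends upstream: the promoter windows matched at 294 of 298 aligned positions, with 3 mismatches and 1 gap position. They are shown to let the paralogs be compared; Ear1 is at chr14:43819590-43819889 on the minus strand and Ear2 at chr14:44102404-44102703 on the plus strand (GRCm38.p6, RefSeq). Capitals mark the differing bases and the ends that the other window does not reach.
Ear1: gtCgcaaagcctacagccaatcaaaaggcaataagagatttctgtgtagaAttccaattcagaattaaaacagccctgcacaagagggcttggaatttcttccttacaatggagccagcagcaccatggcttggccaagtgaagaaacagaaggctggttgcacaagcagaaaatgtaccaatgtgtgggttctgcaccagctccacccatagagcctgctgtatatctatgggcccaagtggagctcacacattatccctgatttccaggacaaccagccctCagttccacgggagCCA
Ear2: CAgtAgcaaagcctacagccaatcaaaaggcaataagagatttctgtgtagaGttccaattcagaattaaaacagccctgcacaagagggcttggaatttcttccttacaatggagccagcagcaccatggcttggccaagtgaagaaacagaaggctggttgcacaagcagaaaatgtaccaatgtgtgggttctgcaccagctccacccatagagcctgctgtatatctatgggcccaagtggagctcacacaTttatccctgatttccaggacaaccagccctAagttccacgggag

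Other ribonuclease genes of the superfamily lay mostly the same way. Of 10 family genes tested, Ear1 and Ear2 included, 9 had log2 fold changes above 0 (median 0.72), and 0 passed the test. In 6 of them both transgenic libraries lay above both controls, as for 11.9% of all genes. Those 6 include Ear2, Ear6 and Ear10, which share stretches of sequence and so are not independent. Ear10 stood at 0.794 and 1.52 CPM (B and E) against 0.273 and 0.434 (D and F) (log2 fold change 1.71, SE 0.47), though it shares sequence with Ear1 and Ear2. Rnase4, a broadly expressed ribonuclease gene, was far more abundant and shifted less (0.21, SE 0.14). Of the eosinophil markers, Prg3 had 0 counts in every library, and Prg2, Epx and Ccr3 did not exceed 0.469 CPM in any library. Control F held 40 counts of Prg2 and 24 of Epx. Library B held 4 and 0, and D and E held 0 of both. The summed level of the 8 eosinophil markers in the table was 2.67 and 8.83 CPM with the transgene and 1.67 and 6.55 CPM without it, and Siglecf, which alveolar macrophages share, was its highest gene in each library except D, where Alox15 was. Their part in the ribonuclease levels was not tested.

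Atp6v0d2, Ctsk and Cd68 act in the endolysosomal compartment. Atp6v0d2 encodes the macrophage and osteoclast form of the d subunit of the vacuolar proton pump, and it read 7.01 and 14.2 CPM (B and E) against 2.57 and 8.99 (D and F). Control F again exceeded transgenic B. The log2 fold change was 0.88 (SE 0.65), with B 2.73-fold above D and E 1.58-fold above F, and -0.92 with the Y-linked covariate.

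The proton pump as a whole had a median near 0. Of 23 subunit and accessory genes tested, 14 lay above 0 with a median of 0.04, and 0 passed. In 6 both transgenic libraries lay above both controls and in 2 the reverse, against 11.9% and 12.0% of all genes. Atp6v0d1, the ubiquitous form of the d subunit, stood at 100 and 92.3 CPM (B and E) against 93.5 and 93.2 (D and F) (log2 fold change 0.05, SE 0.10). The highest value after Atp6v0d2 among genes averaging 1 CPM or more was that of Atp6v0a4, a subunit isoform of acid-secreting cells, at 0.65 (SE 0.31).

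Ctsk encodes cathepsin K, a collagen-degrading protease of osteoclasts that lung fibroblasts and macrophages also make. It was the 1 gene of the 10 with its highest level in a control library, 13.6 CPM in F, beside 12.4 in E, 9.40 in B and 6.80 in D. The groups overlapped fully (log2 fold change 0.09, SE 0.36), and the value was -1.01 with the Y-linked covariate. The 12 fibroblast markers summed to 1573 and 3400 CPM (B and E) against 2482 and 3798 (D and F), highest in F and E as Ctsk was, but lowest in B where Ctsk was lowest in D. Their part in its level was not tested.

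Cd68 encodes macrosialin, a heavily glycosylated lysosomal membrane protein of macrophages. Its values were 5.74 and 9.61 CPM (B and E) against 4.54 and 7.52 (D and F). Transgenic libraries were above their neighbour by almost the same ratio, 1.26-fold for B over D and 1.28-fold for E over F, while the groups as a whole overlapped (log2 fold change 0.35, SE 0.36).

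The promoter window of Cd68 was the only one of the 11 with the AP-1 letters TGANTCA, which 7.81% of all windows hold. It lies at chr11:69666121-69666420 on the minus strand (GRCm38.p6, RefSeq), with both matches in capitals.
Cd68: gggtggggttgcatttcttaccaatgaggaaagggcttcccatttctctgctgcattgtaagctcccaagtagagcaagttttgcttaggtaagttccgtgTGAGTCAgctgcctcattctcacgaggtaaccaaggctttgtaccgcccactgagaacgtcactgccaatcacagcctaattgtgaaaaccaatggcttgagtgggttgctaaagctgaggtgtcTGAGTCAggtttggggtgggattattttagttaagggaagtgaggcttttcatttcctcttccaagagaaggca

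Lysosomal genes in general stayed near 0. Of 34 cathepsin and lysosomal genes, which include Ctsk and Cd68, 24 were above 0 with a median of 0.05, and 0 passed. Ctss, encoding the cathepsin of antigen-presenting cells, had the highest value, 0.98 (SE 0.50), at 19.6 and 34.6 CPM (B and E) against 7.77 and 19.8 (D and F). Among 13 osteoclast genes tested the median was 0.04 with 8 above 0, Acp5, which encodes tartrate-resistant acid phosphatase, being at 0.40 (SE 0.19).

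Fabp1 and Krt79 are less familiar parts of the alveolar macrophage signature. Fabp1 encodes the liver-type fatty acid binding protein, an intracellular lipid carrier, and had the fewest counts of the 10, with 48 and 135 counts (B and E) against 26 and 113 (D and F) (0.635 and 1.52 CPM against 0.323 and 1.33 CPM). Per kilobase it averaged 1.41 RPKM, above Krt79 (1.02) and Marco (1.32). The groups overlapped, and the 2 controls differed by 4.11-fold, more than any transgenic library differed from the control of its pair. Its log2 fold change of 0.39 (SE 0.76) turned to -0.39 without library E, -0.29 without library D and -1.57 with the Y-linked covariate. Of 8 liver markers, Alb (2.53 to 5.03 CPM) and Apob (2.26 to 5.09 CPM) were above Fabp1 in every library, Serpina1a had 0 counts in every library, and the other 5 did not exceed 0.164 CPM. Their part in the level of Fabp1 was not tested. Of 12 lipid binding protein genes of its family tested, 4 were above 0 (median -0.09), and Fabp1 was the highest. Fabp4, the adipocyte form and a PPARγ target in macrophages, stood at 15.5 and 21.02 CPM (B and E) against 17.4 and 22.3 (D and F) (-0.12, SE 0.21).

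Krt79 encodes a type II keratin that lung macrophage profiles carry despite its epithelial family. Its level was 1.73 and 4.53 CPM (B and E) against 1.27 and 2.91 (D and F), again with control F above transgenic B (log2 fold change 0.59, SE 0.60). It was -0.28 without library E and -0.53 with the Y-linked covariate. Krt19, another keratin of the macrophage list that airway epithelium expresses strongly, ran in another order, with 133 and 79.8 CPM (B and E) against 117 and 81.9 (D and F).

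Lgals3 encodes galectin-3, a β-galactoside-binding lectin of macrophages and epithelium. It was the most abundant of the 10 per kilobase, averaging 14.0 RPKM where the other 9 ran from 1.02 to 5.83. Its CPM was 39.6 and 34.1 (B and E) against 28.7 and 25.6 (D and F), and both transgenic libraries were above both controls. The means were 36.8 ± 3.85 and 27.1 ± 2.22 CPM (SD, n = 2 each; log2 fold change 0.44, SE 0.13; adjusted p = 0.999993 in edgeR). B was 1.38-fold above D and E 1.33-fold above F, and its value stayed above 0 with the Y-linked covariate (0.61, SE 0.36). Of 9 galectin genes tested 3 were above 0 (median -0.05). Lgals3 was the 1 of the 9 with both transgenic libraries above both controls, a share near the 11.9% of all genes.

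**Figure D2:**
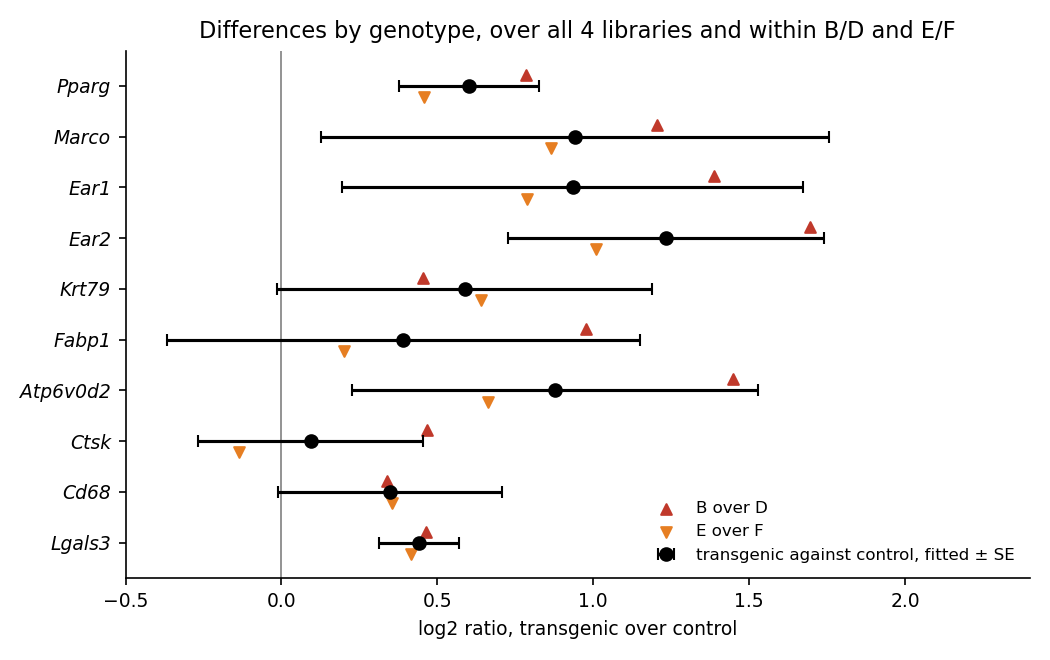
Log2 ratios of transgenic to control for each gene: the fitted log2 fold change with its SE (black), library B over D (red) and library E over F (orange). All 10 fitted values are above 0, Lgals3 has the smallest SE, and E over F for Ctsk is the only ratio below 0.

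The 10 genes had partly shared profiles over the 4 libraries. In 6 of them, Marco, Ear1, Krt79, Fabp1, Atp6v0d2 and Cd68, the libraries ranked E, F, B, D from high to low, a rank order that 4.39% of all genes tested had. Pparg and Ear2 ranked E, B, F, D, Ctsk ranked F, E, B, D and Lgals3 ranked B, E, D, F. The closest profiles were those of Ear1 and Atp6v0d2, at a Euclidean distance of 0.188 between log2(CPM + 0.1) values centred on each gene's mean. Marco and Ear1 followed at 0.271. Lgals3 stood farthest from the mean profile of the 10 (distance 1.21, the others 0.407 to 0.821), with Marco its most distant partner (2.02). These distances rest on 4 libraries and share their depth and cell composition.

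**Figure D3:**
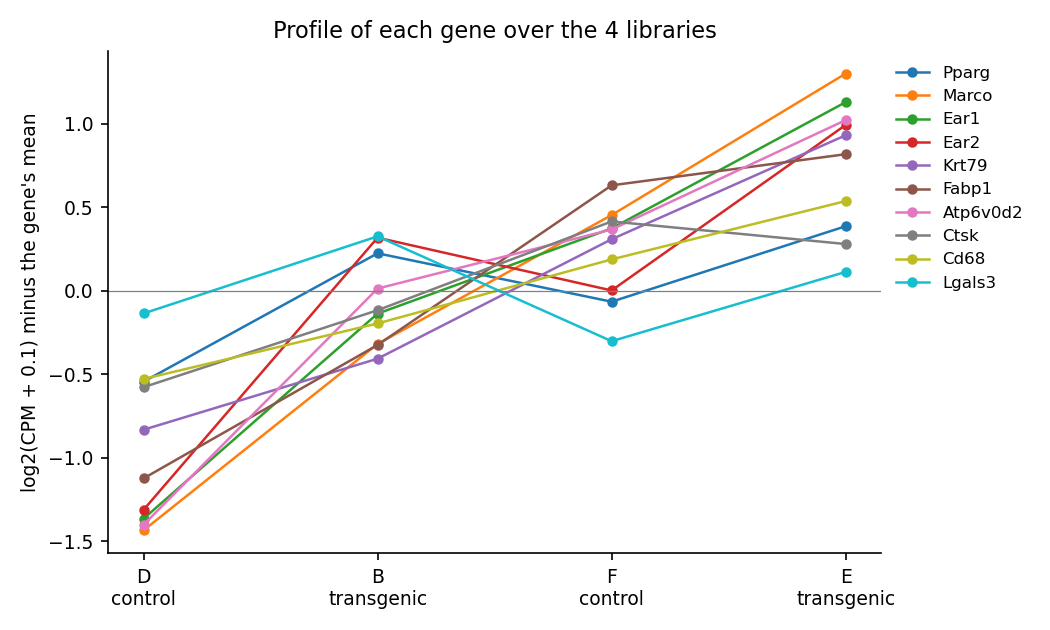
Level of each gene in each library as log2(CPM + 0.1) minus the gene's own mean, with lines joining the values of a gene. Most lines climb from control D through B and F to transgenic E, Marco over the widest range, while Lgals3 peaks in B and is lowest in F.

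Genes with the most similar profile were found by the same distance among 13759 genes averaging at least 1 CPM, with the 10 and predicted gene models left out. Nearest to the mean profile were Emilin2 (0.0613), Csf2rb (0.0836), Adgre1 (0.091), F10 (0.0914) and Chd5 (0.104). Csf2rb encodes the shared β chain of the receptors for GM-CSF, IL-3 and IL-5, and Adgre1 the macrophage marker F4/80. Nearest to Marco were Cd22 (0.181), Ccl6 (0.184), Siglec1 (0.192), Wdfy4 (0.245) and Il1rn (0.292). Siglec1 encodes the sialic acid receptor CD169 of macrophages and Ccl6 a chemokine of alveolar macrophages. The other neighbours, among them Emilin2 and Cd22, each the nearest to its target, were not assigned to a cell type. Likeness of profile does not place a gene in macrophages.

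Other alveolar macrophage genes lay mostly the same way. Of 28 tested, 24 had log2 fold changes above 0 (median 0.34), and 0 passed the test. In 5 both transgenic libraries lay above both controls and in 0 the reverse, against 11.9% and 12.0% of all genes. Itgax, encoding the integrin CD11c, read 6.54 and 14.5 CPM (B and E) against 1.501 and 7.12 (D and F) (1.29, SE 0.78). Siglecf, the surface receptor by which these cells are sorted, was at 1.79, 6.24, 0.595 and 3.05 CPM in B, E, D and F (1.14, SE 0.91). Chil3, encoding a chitinase-like protein, ranged from 3.91 CPM in D to 60.5 in E (0.97, SE 1.06). In each of these 3 control F exceeded transgenic B. These 3 were detected in all 4 libraries and were lowest in D. The 4 genes below 0 were Car4 (-0.37, SE 0.34), Fabp4 (-0.12, SE 0.21), Tgm2 (-0.09, SE 0.14) and Abcg1 (-0.07, SE 0.33), each lowest in B.

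The inputs to the programme were split. The list of 25 held genes for GM-CSF and TGF-β signalling, transcription factors of these cells and Car4, a carbonic anhydrase gene that the list of other alveolar macrophage genes also holds. Of the 25, 14 were above 0 (median 0.10), and 0 passed. Separated upward were 5 and downward 1, against 11.9% and 12.0% of all genes. Csf2, the GM-CSF gene, stood at 6.30 and 5.73 CPM (B and E) against 4.99 and 4.19 (D and F) (0.39, SE 0.19). Its receptor chain gene Csf2ra had a log2 fold change of 0.43 (SE 0.17), Csf2rb 0.60 (SE 0.48) and Csf2rb2 0.48 (SE 0.72). Spi1, encoding PU.1, was 3.15 and 6.42 CPM (B and E) against 1.44 and 3.20 (D and F), the groups overlapping by a narrow margin (1.04, SE 0.52). Klf4, a factor of many lung cell types, lay lower in both transgenic libraries (-0.38, SE 0.13), and Runx1 lay higher in both (0.29, SE 0.14).

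Lipid genes that PPARγ is known to activate had a median near 0. Of 23 tested, 12 were above 0 and 11 below (median 0.01), and 0 passed. Separated upward was 1, Plin2, and downward 0, against 11.9% and 12.0% of all genes. Plin2, which coats lipid droplets, had a log2 fold change of 0.19 (SE 0.10), and Lpl, the lipoprotein lipase gene, 0.31 (SE 0.34). Scavenger receptors were mixed as well, 12 of 18 above 0 with a median of 0.12, Marco and Cd68 included. Msr1, the gene of the class A relative of Marco, stood at 1.95 and 2.93 CPM (B and E) against 0.595 and 1.22 (D and F) (1.42, SE 0.43).

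Macrophage genes of no particular tissue also had mostly positive values. Of 16, 15 had log2 fold changes above 0 (median 0.80), and 0 passed. Separated upward were 7 and downward 0, against 11.9% and 12.0% of all genes. Cd14, the lipopolysaccharide co-receptor gene, was at 0.67 (SE 0.20) and Itgam, encoding CD11b, at 0.98 (SE 0.39). The mean of the 16 was 0.72. Set against that mean, 4 of the 10 lay above it, Ear2 (by 0.52), Marco (0.22), Ear1 (0.22) and Atp6v0d2 (0.16). The other 6 lay below, from -0.12 for Pparg to -0.62 for Ctsk. Against Ptprc alone, whose log2 fold change was 1.03 (SE 0.38), only Ear2 was higher. The summed level of the 16 was 921 and 969 CPM with the transgene and 912 and 840 CPM without it, most of it from Lyz2, which alveolar type 2 cells also express (-0.01, SE 0.16).

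Marker lists of other lung cells moved with the libraries in other ways. Of 14 interstitial macrophage and monocyte genes, 8 were above 0 (median 0.39), and the monocyte receptor genes Ccr2 (0.98, SE 0.20) and Cx3cr1 (0.94, SE 0.23) were among 4 separated upward. Nr4a1, a nuclear receptor gene of patrolling monocytes and other cells (-0.47, SE 0.13), and Ly6c2, a monocyte surface antigen gene (-0.04, SE 0.16), were separated downward. Over all genes 11.9% were separated upward and 12.0% downward. All 12 alveolar type 2 markers were above 0 (median 0.24), 1 of them separated, and they summed to 67164 and 44870 CPM (B and E) against 54984 and 40321 (D and F). Of 12 fibroblast markers 2 were above 0 (median -0.34). The median log2 ratio of F over D was 1.29 for the 10 genes, 0.55 for fibroblast and -0.33 for type 2 cell markers, and 0.01 over all genes tested. The part of cell composition in the levels of the 10 was not tested.

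**Figure D4:**
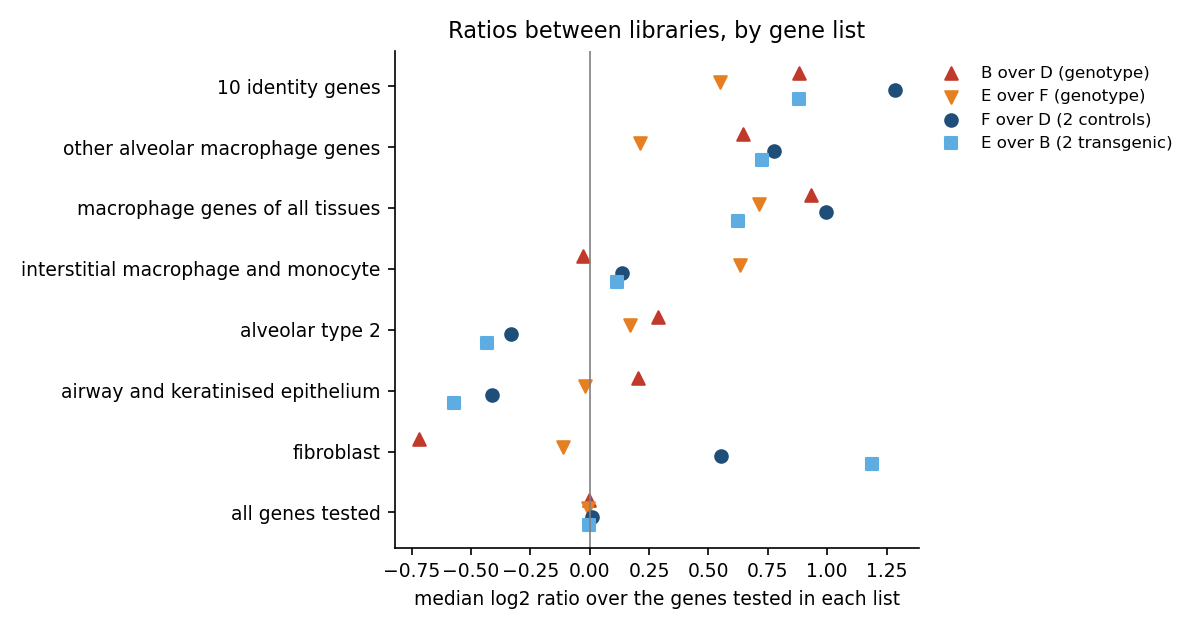
Median log2 ratio between libraries over the tested genes of each list: transgenic over control as B over D (red) and E over F (orange), and between libraries of the same genotype as F over D (dark blue) and E over B (light blue). For the 10 genes all 4 medians are above 0 and the largest, 1.29, is between the 2 controls, while type 2 cell markers have values below 0 for F over D and E over B.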

How the data were processed

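The authors deposited a single table holding, for every gene, unnormalized integer read counts of each library and the matching RPKM. TopHat2 (2), Bowtie (1) and featureCounts (1) are named by the submitters' processing notes, as are the builds mm10 and GRCm38. No source used here states the annotation release, strand setting or handling of multiply matching reads. RPKM values deposited by the authors were used only to compare levels between genes per length.

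Libraries were grouped by genotype label. Genes were filtered with filterByExpr (minimum count 10, total 15) and scaled by TMM. The test was edgeR 4.0.16 (R 4.3.3), quasi-likelihood with its legacy setting, 2 libraries per group, Benjamini-Hochberg over 20872 genes. SE is the log2 fold change over the square root of F. The reference table of gene names held 42462 of 43346 identifiers. The fit was tested on data simulated without the difference between libraries B and D and libraries E and F. That simulation does not show how often the fit finds a change in the real libraries. Alternatives, among them DESeq2 1.42.0 and limma-voom (limma 3.58.1), are given in the closing section.

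The 10 genes, the lists, the grouping of B and D against E and F and the Y-linked covariate were chosen with earlier results of these data known. From each list the 3 genes with the smallest p averaging at least 1 CPM were eligible for naming. Others (among them Siglecf, Chil3, Car4, Tgm2, Abcg1, Ly6c2, Krt19, Fabp4, Spi1, Csf2, Csf2rb, Csf2rb2, Ear10, Atp6v0d1, Lyz2 and the eosinophil genes) were chosen after their values were seen. With 2 libraries against 2, an exact permutation test cannot reach 0.05, so none is given.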

Additional observations from a re-analysis of the deposited data

How the results depend on the processing

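With DESeq2 size factors, upper-quartile factors, library sizes without haemoglobin, immunoglobulin and surfactant genes, no filter, a stricter filter (1 CPM in 2 libraries), or no legacy setting, the 10 genes kept values above 0, 0 were called, and 3 stayed separated where that was computed. Of all genes tested in those settings, 10.2% (stricter filter) to 12.1% (DESeq2 size factors) were separated upward. Over all genes, 0 were called by the edgeR fit and 1 by DESeq2. With 1 library left out, 0 to 15 genes were called (2 without B, 15 without E, 5 without F), 5 to 10 of the 10 lay above 0, and 3 to 10 had higher levels with no overlap (9 without B, 3 without E, 3 without D with 1 lower, and 10 without F), where 28.5%, 35.7%, 30.7% and 27.3% of all genes tested did. Of the 10, 2 to 6 exceeded the mean of macrophage genes, 2 without D. The lone library left in a group was assumed to vary like the others.

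With a covariate for Y-linked RNA, which is hardly separable from genotype here, 2 of the 10 lay above 0 and 2 above the macrophage mean. Against Ptprc alone, 1 did. Under that covariate the log2 fold changes of Marco (-0.92, SE 1.26), Ear1 (-0.90, SE 1.16), Ear2 (-0.19, SE 0.77) and Krt79 (-0.53, SE 1.09) turned. Those of Fabp1 (-1.57, SE 1.19), Atp6v0d2 (-0.92, SE 0.87), Ctsk (-1.01, SE 0.52) and Cd68 (-0.37, SE 0.69) turned as well. Without library E those of Marco (-0.13), Krt79 (-0.28), Fabp1 (-0.39), Ctsk (-0.13) and Cd68 (-0.079) turned, and without D those of Fabp1 (-0.29) and Ctsk (-0.32). Across the libraries left out, Marco ran from -0.13 to 2.27, Krt79 to 1.31, Fabp1 to 1.74, Ctsk from -0.32 to 0.68, Ear1 from 0.11 to 2.20, Atp6v0d2 from 0.24 to 2.05, Ear2 from 0.71 to 2.08, Pparg from 0.38 to 0.87, Lgals3 from 0.33 to 0.53 and Cd68 from -0.079 to 0.76. The cause was not tested. Fabp1, with 26 counts in D, and Ear1, with 40, had the least depth behind their values.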
